A study of Mus musculus with 463 samples.

Results

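The cells described here are mouse embryonic cells sorted for green fluorescence from the ventral Pdx1 region of Pdx1-GFP transgenic embryos, at the embryonic days E10.5 and E9.5. They were taken by their group name in the single-cell table and make up 103 of its 447 cells: 59 cells in 3 numbered sets at E10.5 and 44 cells in 2 numbered sets at E9.5. The E10.5 sets hold 33, 22 and 4 cells, and the E9.5 sets hold 28 and 16. Dorsal Pdx1+ cells of the same reporter (27 cells in 3 sets at E10.5 and 31 cells in 2 sets at E9.5) serve for a comparison of the stage differences of the 2 sides. All groups carry the same Pdx1-GFP transgene, and the labels give no treatment or further allele for any of them. They give no culture either, apart from a growth protocol of human stem cells on 25 of the 28 cells of ventral E9.5 set 1. The sort read GFP and not Pdx1 RNA, and the labels do not give how many embryos were pooled. The comparison addresses how ventral pancreatic progenitors are specified between the stages.

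The ventral pancreas forms from foregut endoderm next to the tissue that gives rise to the liver and the extrahepatic bile ducts. Pdx1 and Ptf1a are transcription factors that mark and maintain the pancreatic progenitor, Sox17 directs the ventral foregut towards the biliary primordium, and Afp is a secreted protein of the early liver and foregut endoderm. In mouse embryos Pdx1 and Sox17 are known to be present together in early ventral foregut cells and to be found in separate domains later. In GRCm38 with the GENCODE vM21 annotation, Pdx1 lies on chromosome 5 (147269959 to 147275848), Ptf1a on chromosome 2 (19445663 to 19447501) and Sox17 on chromosome 1 (4490931 to 4497354). Afp is also on chromosome 5 (90490737 to 90508907).

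Expression was measured by Smart-seq2, which amplifies full-length cDNA of single cells and has no molecular identifiers. E10.5 cells were shallower, with 580295 gene reads in the median cell (range 201191 to 1593018) and 9434 detected genes, against 1133272.5 reads (range 922914 to 1738015) and 10434 genes at E9.5. Set 3 of E10.5 stands apart. It has only 4 cells with 1403528 reads in all, and 1 of the 4 had no read of Epcam, Krt8, Afp or Hhex while it held 11 mesenchyme genes at 10 CPM (counts scaled to the total of the cell or set) or more, among them the collagen gene Col3a1 at 1774 CPM. In set 1 of E9.5, 25 of 28 cells carry a growth protocol of human stem cells in their labels and were kept as mouse cells. Cells with 10 CPM or more of both Xist, which female cells make, and a Y-linked gene numbered 12 of 59 at E10.5 (1 of 33, 10 of 22 and 1 of 4 by set) and 12 of 44 at E9.5 (12 of 28 and 0 of 16). In set 1 of E9.5 these 12 cells had a median of 12224.5 detected genes, against 10557.5 in the other 16. What a numbered set stands for (embryo, litter, sort or plate) is not in the labels. Each p-value below therefore rests on the variation among sets alone, and that variation may be technical.

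At 10 CPM or more, Pdx1 was found in 30 of 59 E10.5 cells (50.8%, 95% Clopper-Pearson interval 37.5 to 64.1%) and in 28 of 44 E9.5 cells (63.6%, 47.8 to 77.6%). Afp was found in 56 of 59 E10.5 cells (94.9%) and 42 of 44 E9.5 cells (95.5%), and Hhex, a factor of ventral foregut and liver endoderm, in 58 of 59 and 38 of 44. The 23 liver bud cells of E10.5, sequenced to a median of 1243844 reads, had no cell with Pdx1, Ptf1a or Nkx6-1 at that level, which allows a share of up to 13.0% (3 counts of the total). Bulk libraries of the same E10.5 ventral sort had Pdx1 at 108 and 122 CPM, within the range of the summed single-cell sets. Nkx6-1 (20.1 and 18.9 CPM), Cpa1 (64.4 and 58.5 CPM) and Wnt7b (45.8 and 48.4 CPM) also lay within the range of the E10.5 sets. Ptf1a, at 14.4 and 13.9 CPM, lay below every summed E10.5 set, and Cdx2, at 11.1 and 9.14 CPM, lay above every one. The bulk libraries also had the heart muscle gene Myh6 at 828 and 519 CPM. In the E10.5 single-cell sets the whole list of 10 cardiac muscle genes summed to at most 52.0 CPM. Bulk and single-cell sorts therefore differed in content, and the part of this in the bulk levels was not tested. Intervals and limits on shares cover counting error only.

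Fewer cells held Pdx1 and Sox17 together at E10.5 than at E9.5. At E10.5 both genes stood at 10 CPM or more in 4 of 59 cells (6.78%, 1.88 to 16.5%), against 19 of 44 cells at E9.5 (43.2%, 28.3 to 59.0%). By set, the counts were 2 of 33, 2 of 22 and 0 of 4 at E10.5, against 13 of 28 and 6 of 16 at E9.5. The set shares did not overlap (0 to 9.09% at E10.5 and 37.5 to 46.4% at E9.5), although the interval of 0 of 4 cells reaches 60.2%, and an exact one-sided permutation test of 3 sets against 2 cannot give less than p = 0.1. The shares of cells with each gene on its own had overlapping intervals. Sox17 was found in 26 of 59 E10.5 cells (44.1%) and 26 of 44 E9.5 cells (59.1%), so that at E10.5 the cells split into 26 with Pdx1 alone, 22 with Sox17 alone, 4 with both and 7 with neither, and at E9.5 into 9, 7, 19 and 9. Among cells with Pdx1, 4 of 30 at E10.5 (13.3%, 3.76 to 30.7%) and 19 of 28 at E9.5 (67.9%, 47.6 to 84.1%) also had Sox17. Across cells, Spearman's rho between Pdx1 and Sox17 was -0.58 over 59 cells at E10.5 and 0.21 over 44 cells at E9.5, a description of cells that share sets, sequencing depth and many values of 0.

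**Figure D1:**
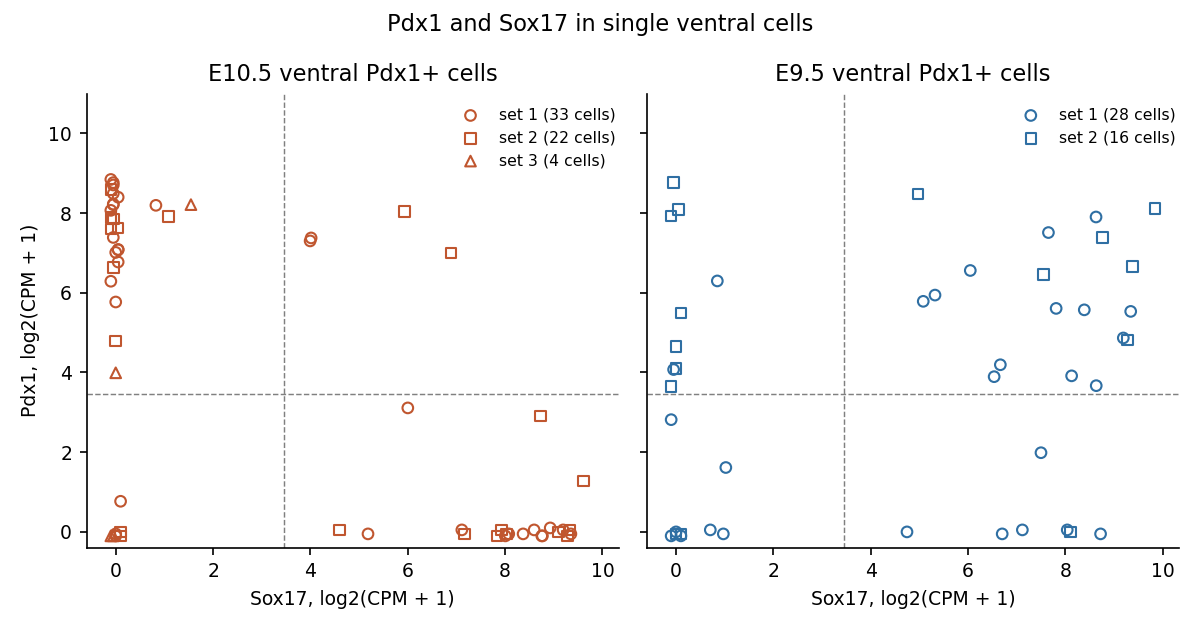
Each point is 1 ventral Pdx1+ cell, with Sox17 on the x axis and Pdx1 on the y axis, both as log2(CPM + 1), symbols marking the set and dashed lines marking 10 CPM (points at 0 are spread by up to 0.1 for legibility). At E10.5 (left) 4 of 59 cells lie in the upper right field, against 19 of 44 at E9.5 (right).

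The direction of this difference was the same under every other way of counting that was tried, but its size was not. At 50 CPM, 2 of 59 E10.5 cells (3.39%) and 7 of 44 E9.5 cells (15.9%) held both genes, and the 95% intervals then overlapped (0.413 to 11.7% and 6.64 to 30.1%). At 50 CPM cells with Sox17 but not Pdx1 numbered 20 of 59 (33.9%) and 15 of 44 (34.1%), so the gap seen at 10 CPM (37.3% and 15.9%) was not there. Cells with Pdx1 but not Sox17 numbered 26 of 59 (44.1%) and 7 of 44 (15.9%) at 50 CPM. Their shares by set were 54.5, 31.8 and 25.0% at E10.5, against 10.7 and 25.0% at E9.5. At 10 CPM they were 48.5, 36.4 and 50.0%, against 7.14 and 43.8%, so the sets did not separate. At 1 CPM the co-positive counts were 9 of 59 (15.3%) and 21 of 44 (47.7%). With every cell thinned to 100000 reads they were 7 of 59 (11.9%) and 18 of 44 (40.9%) at 10 CPM, which is 1 read, and 1 of 59 (1.69%) and 8 of 44 (18.2%) at 50 CPM. Without cells that held both Xist and Y-linked reads they were 3 of 47 (6.38%) and 14 of 32 (43.8%). Of the co-positive cells, 1 of 4 at E10.5 and 5 of 19 at E9.5 held both kinds of sex-linked reads, and the E9.5 co-positive cells had a median of 10516 detected genes, against 8962 in E9.5 cells with Pdx1 alone and 11068 in those with Sox17 alone. Without the 25 cells with the odd label the E9.5 count was 8 of 19 (42.1%). Cells with values between 5 and 20 CPM, near the level used, numbered 3 for Pdx1 and 2 for Sox17 at E10.5, and 8 for Pdx1 and 0 for Sox17 at E9.5. On the dorsal side, 1 of 27 E10.5 cells and 6 of 31 E9.5 cells held both genes.

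**Figure D2:**
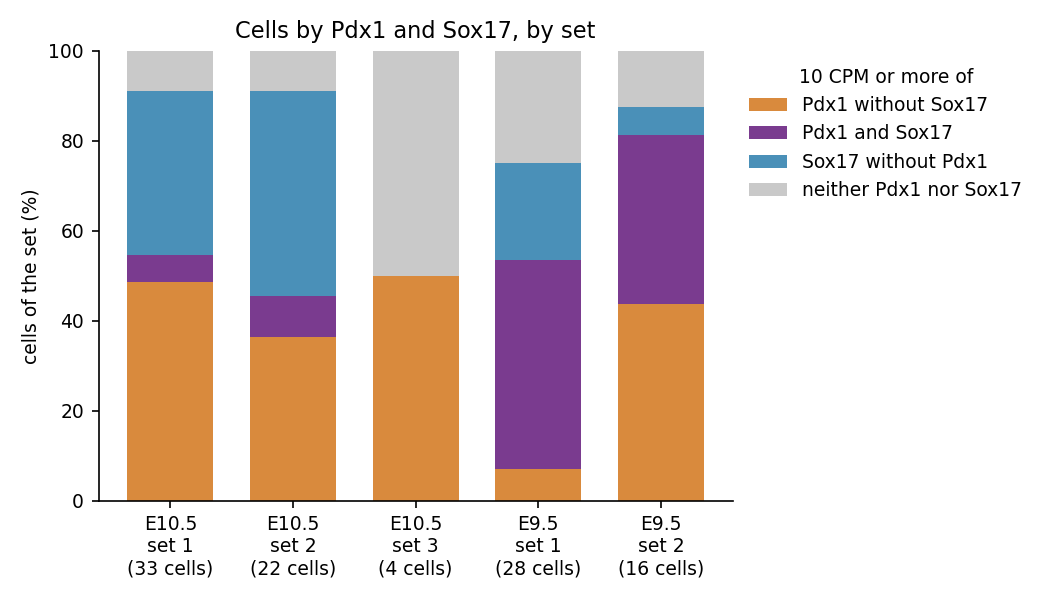
Stacked bars give the percentage of cells of each ventral set with 10 CPM or more of Pdx1 alone, of both Pdx1 and Sox17, of Sox17 alone, or of neither. The co-positive part takes 0 to 9.09% of the 3 E10.5 sets and 37.5 to 46.4% of the 2 E9.5 sets.

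Pdx1 itself reached higher values in the E10.5 cells that had it. Among cells at 10 CPM or more, the median Pdx1 level was 217, 213 and 155 CPM in the 3 E10.5 sets, against 46.6 and 101 CPM in the 2 E9.5 sets. The value of E10.5 set 3 is the midpoint of 2 cells, at 14.9 and 295 CPM. The highest cell had 458 CPM at E10.5 and 435 CPM at E9.5, so the ranges of cells overlapped. Summed over all cells of a set, Pdx1 stood at 125, 83.1 and 95.9 CPM at E10.5, against 38.6 and 127 CPM at E9.5. These sums overlapped and the log2 fold change was 0.29 (95% interval -1.74 to 2.32), with a negative sign when E9.5 set 1 or the cells with both kinds of sex-linked reads were left out. In the E10.5 set of 4 cells, 98.1% of the Pdx1 reads came from 1 cell. The median Sox17 level of positive cells was 299 and 251 CPM in E10.5 sets 1 and 2, against 199.9 and 434 CPM in the E9.5 sets.

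Ptf1a and Nkx6-1, 2 further transcription factors of pancreatic progenitors, were found mainly in Pdx1 cells of E10.5. Ptf1a stood at 10 CPM or more in 18 of 59 E10.5 cells (30.5%, 19.2 to 43.9%) and 5 of 44 E9.5 cells (11.4%, 3.79 to 24.6%), and at both stages all of these cells also had Pdx1. By set the Ptf1a counts were 10 of 33, 7 of 22 and 1 of 4 at E10.5, against 2 of 28 and 3 of 16 at E9.5. At 1 CPM the stage gap in Ptf1a nearly closed, to 19 of 59 cells (32.2%) and 13 of 44 cells (29.5%), since 8 of 28 cells of E9.5 set 1 had Ptf1a above 0 and below 10 CPM. With cells thinned to 100000 reads, Ptf1a was found in 18 of 59 (30.5%) and 9 of 44 (20.5%) at 10 CPM, and without the 25 cells with the odd label in 4 of 19 E9.5 cells (21.1%). Without the cells with both kinds of sex-linked reads, Ptf1a counts were 11 of 47 (23.4%) and 4 of 32 (12.5%). Nkx6-1 was found in 15 of 59 E10.5 cells (25.4%, 15.0 to 38.4%) and 2 of 44 E9.5 cells (4.55%). Pdx1, Ptf1a and Nkx6-1 occurred together in 14 of 59 E10.5 cells (7 of 33, 6 of 22 and 1 of 4) and 1 of 44 E9.5 cells (1 of 28 and 0 of 16). At 1 CPM Nkx6-1 was found in 18 of 59 cells (30.5%) and 7 of 44 cells (15.9%). In E9.5 set 1, 7 of 28 cells held it above 0 and below 10 CPM. The 3 genes together were found in 17 of 59 and 5 of 44 cells at 1 CPM, and in 4 of 59 and 0 of 44 at 50 CPM. Only 1 of 18 Ptf1a cells at E10.5 held Sox17, against 4 of 5 at E9.5.

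Summed per set, these genes were higher in all E10.5 sets than in both E9.5 sets, but did not pass the test. Ptf1a stood at 42.6, 28.5 and 28.7 CPM at E10.5, against 5.72 and 10.8 CPM at E9.5, a log2 fold change of 2.01 (-1.47 to 5.49), which was 3.28 with the set number as a replicate block and 0.95 without the cells with both kinds of sex-linked reads. Nkx6-1 stood at 8.88, 6.72 and 24.4 CPM at E10.5, against 1.396 and 0.842 CPM at E9.5. Its log2 fold change of 3.54 (0.88 to 6.19) had an unadjusted p = 0.0108 and an adjusted p of 1 in edgeR's quasi-likelihood test. Cpa1, a carboxypeptidase of multipotent tip progenitors and later acinar cells, stood at 113, 125 and 15.9 CPM at E10.5, against 12.3 and 6.69 CPM at E9.5. In E10.5 set 2, 72.3% of the Cpa1 reads came from 1 cell with 2431 CPM, and 13 of its other cells held Cpa1 below 10 CPM, while in E10.5 set 1 there were 13 cells at 10 CPM or more and none below it but above 0. Wnt7b, a secreted Wnt ligand of the pancreatic epithelium, was found at 10 CPM or more in 42 of 59 E10.5 cells (71.2%, 57.9 to 82.2%) and 8 of 44 E9.5 cells (18.2%, 8.19 to 32.7%). Its set levels were 86.1, 59.4 and 6.72 CPM at E10.5, against 8.10 and 0.158 CPM at E9.5, with the set of 4 cells inside the E9.5 range and the unadjusted p at 0.0524. Among cells with Pdx1, 26 of 30 at E10.5 and 6 of 28 at E9.5 had Wnt7b, and among cells with Sox17, 19 of 26 and 5 of 26.

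**Figure D3:**
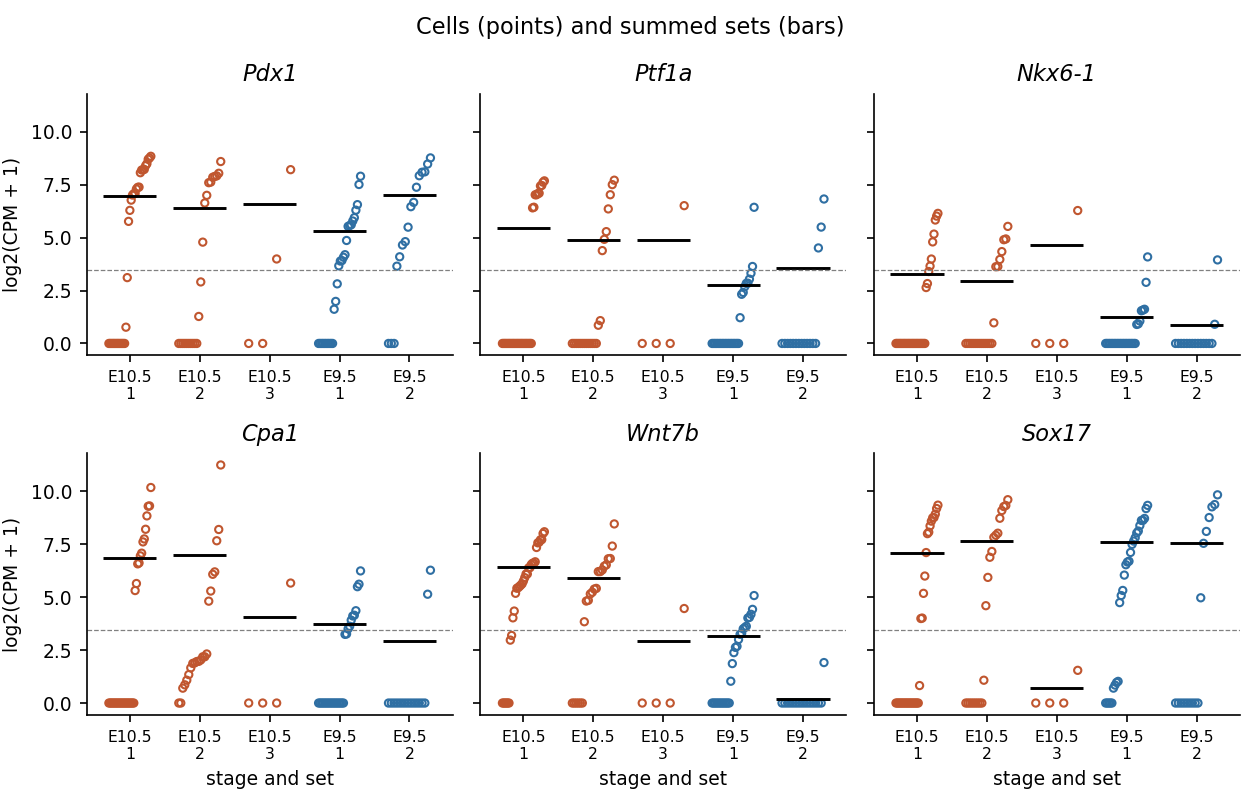
Points are single ventral Pdx1+ cells ordered by value within each set, as log2(CPM + 1), black bars are the summed level of the set and the dashed line marks 10 CPM. Ptf1a, Nkx6-1 and Cpa1 bars are higher in the 3 E10.5 sets (left) than in the 2 E9.5 sets (right), and a band of low Cpa1 values runs through E10.5 set 2.

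In cells with Pdx1 alone, levels of other genes differed by stage. At E10.5 their median levels were 82.4 CPM of Ptf1a, 95.8 CPM of Cpa1 and 661 CPM of Sox9, a factor of progenitors and ducts, in 26 cells. The 9 cells with Pdx1 alone at E9.5 had a median of 0 CPM of Ptf1a and Cpa1 and 151 CPM of Sox9, but 24.1 CPM of Cdx2, an intestinal factor, and 324 CPM of Gata4, an endoderm factor, against 0 and 42.7 CPM at E10.5. Of these 9 cells 7 came from E9.5 set 2. Cells with Sox17 alone had a median Afp level of 1207 CPM in 22 cells at E10.5 and 5097 CPM in 7 cells at E9.5. Of the cells with neither gene, 5 of 7 at E10.5 had Alb, the albumin gene, with a median of 909.9 CPM over the 7, against 5 of 9 and a median of 18.9 CPM at E9.5. These classes were cut from the values of Pdx1 and Sox17, and the levels are given without a test.

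Across all genes the test of summed sets gave no call. Of 19285 genes tested, 0 (0%) passed an adjusted p of 0.05 by edgeR's quasi-likelihood fit (Benjamini-Hochberg), while 431 (2.23%) had an unadjusted p under 0.05 and DESeq2 called 12, of which 4 were higher at E10.5. Without E10.5 set 3 the unadjusted count was 171, and without E9.5 set 2 it was 172. As a measure that needs no test, 1368 genes (7.09%) were higher in all 3 E10.5 sets than in both E9.5 sets, and 2193 (11.4%) were lower. The median log2 fold change of all genes was -0.03. No member of any list below passed the adjusted threshold in edgeR, while DESeq2 called Neurog3, Hoxc4 and Boc among its 12.

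Several pancreatic progenitor genes were higher in every E10.5 set. Of 19 tested members 6 were higher in all 3 E10.5 sets (Ptf1a, Nkx6-1, Mnx1, Nkx2-2, Nr5a2 and Cpa1) and 1, Foxa1, was lower. The list's median log2 fold change was 0.29. Over all genes, 7.09% were higher and 11.4% lower in every E10.5 set. Mnx1, a factor of early pancreatic endoderm and beta cells, was low at both stages, at 5.67, 2.35 and 7.33 CPM at E10.5, against 1.64 and 0 CPM at E9.5. Nkx2-2, an endocrine progenitor factor, stood at 7.84, 4.29 and 6.11 CPM at E10.5, against 2.02 and 1.79 CPM at E9.5. Gata4 had a log2 fold change of -2.02 (-4.46 to 0.42) with overlapping sets, at 35.6, 22.2 and 114 CPM at E10.5, against 96.0 and 361 CPM at E9.5. Sox9 (log2 fold change 0.23), Onecut1 (0.17), Prox1 (0.30) and Foxa2 (-0.38), factors shared by early pancreas and liver, had overlapping sets and intervals that included 0. Of 11 tested acinar enzyme genes, 2 (Cpa1 and the elastase gene Cela1) were higher in every E10.5 set and none was lower, with a list median of 3.10. Cela1 stood at 9.21, 7.46 and 14.7 CPM at E10.5, against 1.92 and 0 CPM at E9.5.

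Liver genes did not shift in one direction. Of 20 hepatoblast genes 3 were higher and 3 lower in every E10.5 set, with a median log2 fold change of 0.31. Over all genes the shares were 7.09% higher and 11.4% lower. Afp stood at 2260, 2238 and 814 CPM at E10.5, against 3762 and 1067 CPM at E9.5, and Alb at 120.5, 104 and 94.7 CPM, against 127 and 9.32 CPM. In both genes E9.5 set 1 was the highest of the 5 sets. Rbp4, the retinol carrier, was lower at E10.5 with 640.5, 918 and 812 CPM, against 1134 and 3510 CPM at E9.5 (log2 fold change -1.56, -3.06 to -0.05). Ttr, the thyroid hormone carrier, stood at 842, 702 and 237 CPM at E10.5, against 1470 and 1342 CPM at E9.5. Fgg, a fibrinogen chain, stood at 54.7, 106 and 197 CPM at E10.5, against 55.0 and 18.8 CPM at E9.5, and overlapped.

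Some biliary and gut genes were lower in every E10.5 set, where 11.4% of all genes were lower and 7.09% higher. Of 13 biliary and ventral foregut genes, none was higher and 4 were lower in every E10.5 set, and of 11 gut and stomach patterning genes, none was higher and 6 were lower, with list medians of -0.50 and -1.35. Cdx2 stood at 0.850, 0.0412 and 0 CPM at E10.5, against 29.3 and 9.90 CPM at E9.5, and was found at 10 CPM or more in 1 of 59 and 13 of 44 cells. The bulk libraries of the E10.5 ventral sort, however, had Cdx2 at 11.1 and 9.14 CPM. Tbx3, which acts in liver bud growth, stood at 22.3, 42.3 and 0 CPM at E10.5, against 89.0 and 67.1 CPM at E9.5. Its bulk levels at E10.5, 43.2 and 48.6 CPM, also lay above every summed E10.5 set. Hoxc4, a Hox gene, had no read in any E10.5 set, against 5.69 and 4.00 CPM at E9.5. Of 12 tested Hox genes 0 were higher and 2 lower in every E10.5 set. The Hox list summed to 0.763, 0.249 and 47.7 CPM at E10.5, against 13.2 and 7.35 CPM at E9.5. Sox17 (137, 204 and 0.611 CPM at E10.5, against 191 and 188 CPM at E9.5), Hhex (362, 349 and 23.8 CPM, against 410 and 283 CPM) and the matrix glycoprotein gene Reln (74.3, 113 and 292 CPM, against 207 and 226 CPM) overlapped in sum, and the set of 4 cells was lowest for Sox17 and Hhex and highest for Reln.

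Of the 4 keratin genes in the lists, each was lower in every E10.5 set and none passed the test. Krt8 and Krt18, partner keratins of simple epithelia, were present in 58 of 59 E10.5 cells and all 44 E9.5 cells. Krt8 stood at 832, 666 and 351 CPM at E10.5, against 1160 and 2144 CPM at E9.5, a log2 fold change of -1.42 (-2.14 to -0.70; unadjusted p = 0.000355, adjusted p = 1 by edgeR). Krt18 stood at 561, 440 and 279 CPM at E10.5, against 1010 and 1482 CPM at E9.5 (-1.54, -2.47 to -0.62). The stage difference ran the same way in dorsal Pdx1+ cells, where both were among the 41 genes called (0.213%): Krt8 had 641, 623 and 281 CPM at E10.5, against 2050 and 2123 CPM at E9.5 (log2 fold change -2.02, adjusted p = 0.00582 by edgeR). Krt7 stood at 72.3, 33.9 and 9.16 CPM in E10.5 ventral sets, against 90.2 and 165 CPM at E9.5, and Krt19 at 79.9, 35.8 and 82.5 CPM, against 130.5 and 148 CPM (log2 fold change -1.08, -3.09 to 0.94). Of 16 epithelial adhesion genes 2 were higher and 6 lower in every E10.5 set, beside 7.09% and 11.4% of all genes. The 2 higher ones were Cdh2 and Grhl2. Cdh2, N-cadherin, stood at 119.9, 83.9 and 99.6 CPM at E10.5, against 40.04 and 13.4 CPM at E9.5 (1.92, 0.35 to 3.48), and was found in 45 of 59 and 21 of 44 cells.

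**Figure D4:**
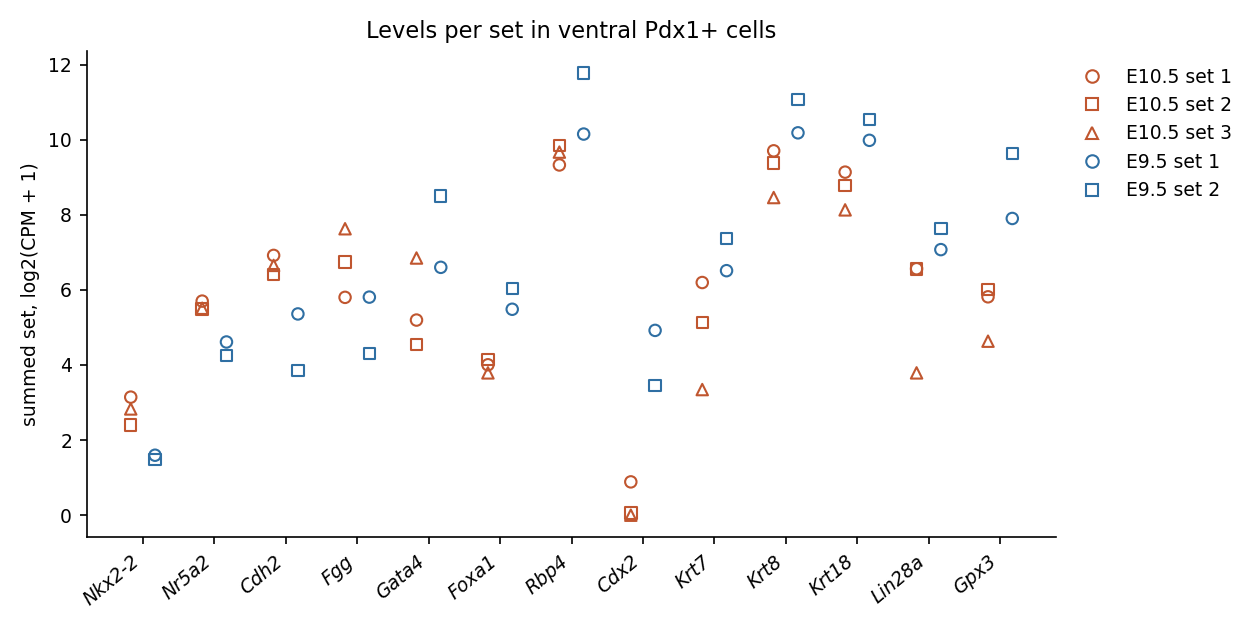
Points give the level of 13 genes in each summed ventral set as log2(CPM + 1), with E10.5 sets left of E9.5 sets for each gene and symbols marking the set number. Cdh2 lies higher and Krt8, Krt18 and Gpx3 lie lower in all 3 E10.5 sets than in both E9.5 sets, while Gata4 overlaps.

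Signalling genes gave small counts, beside 7.09% of all genes higher and 11.4% lower in every E10.5 set. Of 18 Wnt genes 3 were higher and 5 lower in every E10.5 set, among the lower ones the secreted inhibitor Sfrp5 (119.9, 77.9 and 20.2 CPM, against 126 and 572 CPM at E9.5). Of 14 FGF genes 2 were higher and 0 lower. Etv4 and Dusp6, which FGF signalling switches on, had overlapping sets and log2 fold changes of 1.37 (-0.58 to 3.33) and 1.11 (-0.90 to 3.11). Of 15 Notch genes 2 were higher, among them the receptor Notch1 at 115, 132 and 166 CPM at E10.5, against 77.0 and 45.7 CPM at E9.5, and 1 was lower. In the BMP (0 higher, 2 lower of 16), Hedgehog (0 and 1 of 13) and retinoic acid lists (0 and 3 of 15) no member was higher in every set. Rdh10, an enzyme of retinoic acid synthesis, stood at 1.51, 6.31 and 6.11 CPM at E10.5, against 16.1 and 91.3 CPM at E9.5.

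Genes of developmental timing and growth differed by list, beside 7.09% of all genes higher and 11.4% lower in every E10.5 set. Of 10 heterochronic RNA-binding genes none was higher and 5 were lower in every E10.5 set. Lin28a, which blocks let-7 maturation, stood at 93.5, 92.8 and 12.8 CPM at E10.5, against 134 and 197 CPM at E9.5 (log2 fold change -1.30, -2.57 to -0.02), and Trim71 at 66.5, 85.1 and 20.2 CPM, against 115 and 97.7 CPM. Of 14 imprinted growth genes 5 were higher and 2 lower. Igf2, a fetal growth factor, stood at 1510, 1474 and 2470 CPM at E10.5, against 1239 and 966 CPM at E9.5, and the noncoding RNA Meg3 at 877, 888 and 1922 CPM, against 811 and 546 CPM. Phlda2 was lower, at 2.17, 9.24 and 3.66 CPM at E10.5, against 41.4 and 56.0 CPM at E9.5, and was found in 7 of 59 and 24 of 44 cells. Of 16 glycolysis and hypoxia genes 1 was higher and 5 lower. The glucose transporter Slc2a3 stood at 300.1, 218 and 66.0 CPM at E10.5, against 828 and 1424 CPM at E9.5. Of the cell cycle genes, 1 of 16 S phase members was higher and 5 lower, and 1 of 16 G2M members higher and 6 lower, with list medians of -0.18 and -0.45.

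Endocrine genes differed between the E9.5 sets. Cells with 3 or more of the 24 endocrine genes at 10 CPM or more numbered 6 of 59 at E10.5 (2 of 33, 4 of 22 and 0 of 4), against 15 of 44 at E9.5 (1 of 28 and 14 of 16), and the list summed to 87.7, 49.8 and 35.6 CPM at E10.5, against 60.4 and 368 CPM at E9.5. In E9.5 set 2 the insulin genes Ins2 and Ins1 stood at 10 CPM or more in 16 and 14 of 16 cells. Neither had a read in E9.5 set 1. The part of these 2 genes in the count of 14 of 16 cells was not tested. Of 24 tested members 1 was higher and 4 were lower in every E10.5 set, beside 7.09% and 11.4% of all genes. Neurog3, the factor that starts the endocrine program, was found in 2 of 59 E10.5 cells (3.39%) and 0 of 44 E9.5 cells, which allows up to 6.82%. Its reads numbered 95, 3 and 17 in the E10.5 sets, against 0 in both E9.5 sets, and 96.8% of those in set 1 came from 1 cell. Gcg, the glucagon gene, stayed at or below 3.01 CPM in every ventral single-cell set. The bulk libraries of the E10.5 ventral sort, however, had Gcg at 39.7 and 7.24 CPM and Neurog3 at 12.0 and 7.78 CPM. Ghrl, the ghrelin gene, stood at 0.0472, 4.04 and 0 CPM at E10.5, against 6.42 and 80.5 CPM at E9.5, was found at 10 CPM or more in 1 of 59 and 12 of 44 cells, and had 81.2% of its reads in E9.5 set 2 in 1 cell.

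Markers of other cell types were highest in single sets. Summed over the 15 mesenchyme genes, sets stood at 217, 417 and 1570 CPM at E10.5, against 194 and 156 CPM at E9.5, and 15 of 59 and 18 of 44 cells held 3 or more of them at 10 CPM or more. Foxf1, a mesenchyme factor, was at 0 in E10.5 set 2 and in both E9.5 sets. The 10 endothelial genes summed to 39.9, 93.5 and 42.0 CPM at E10.5, against 146 and 61.8 CPM at E9.5, the 10 erythroid genes to 3.81, 4.90 and 126 CPM, against 5.06 and 0.698 CPM, and the 10 cardiac muscle genes to 11.8, 12.8 and 52.0 CPM, against at most 31.8 CPM. Immune genes summed to at most 16.3 CPM in any set, while the 8 neural crest genes reached 246 CPM in the E10.5 set of 4 cells and at most 54.3 CPM in the others. The part of these markers in the results above was not tested. In bulk or summed cells, fewer cells of a type and less RNA per cell cannot be told apart.

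The stage difference was not the same on the ventral and dorsal sides for a few genes. In the test of the ventral difference minus the dorsal difference 7 of 19285 genes passed (0.0363%), all with a negative value: Nefm, Disp2, Dbpht2, Cck, Gfra3, Bex2 and Slc38a5. For 6 of them the ventral sets stayed low at both stages. The amino acid transporter gene Slc38a5 stood at 1.13, 2.97 and 0.611 CPM in ventral E10.5 sets, against 1.71 and 8.53 CPM at ventral E9.5, while dorsal sets stood at 5349, 484 and 21650 CPM at E10.5, against 27.5 and 61.7 CPM at E9.5. Nefm, a neurofilament gene, stood at 0.142, 1.44 and 0.611 CPM at ventral E10.5, against 2.23 and 2.11 CPM at ventral E9.5, while dorsal sets stood at 92.6, 33.7 and 633 CPM at E10.5, against 0.592 and 1.397 CPM at E9.5. Bex2 was abundant on both sides, with 228, 236 and 324 CPM at ventral E10.5 against 360 and 355 CPM at ventral E9.5, and 490, 395 and 681 CPM at dorsal E10.5 against 150 and 211 CPM at dorsal E9.5 (difference -1.98, adjusted p = 0.0231 by edgeR). Endocrine genes differed between the same dorsal sets: 5 of 24 tested members (Neurod1, Pax6, Pcsk1, Pcsk2 and Chgb) were higher at dorsal E10.5 by edgeR, beside 0.135% of all genes. The list summed to 10500, 380 and 48300 CPM at dorsal E10.5, against 179 and 360 CPM at dorsal E9.5, with Gcg at 6266 and 38060 CPM in E10.5 sets 1 and 3. Dorsal E10.5 set 3 stands apart, with Pdx1 at 10 CPM or more in 1 of 6 cells, against 9 of 11 and 10 of 10 in sets 1 and 2. The part of these endocrine genes in the 7 calls was not tested. No gene passed when E9.5 dorsal set 1 or 2 was left out, with only cells at 10 CPM or more of Pdx1, with only the Pdx1+ sets compared, or without cells with both kinds of sex-linked reads. The fit with only Pdx1 cells kept sets of 3 or more such cells. It therefore also lost E10.5 ventral set 3 (2 such cells), E10.5 dorsal set 3 (1 cell) and the E10.5 liver cells (0 of 23). For Ptf1a (difference -0.70), Nkx6-1 (-0.56), Cpa1 (0.14) and Wnt7b (0.42) no difference between the sides passed, with adjusted p = 1 for each.

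**Figure D5:**
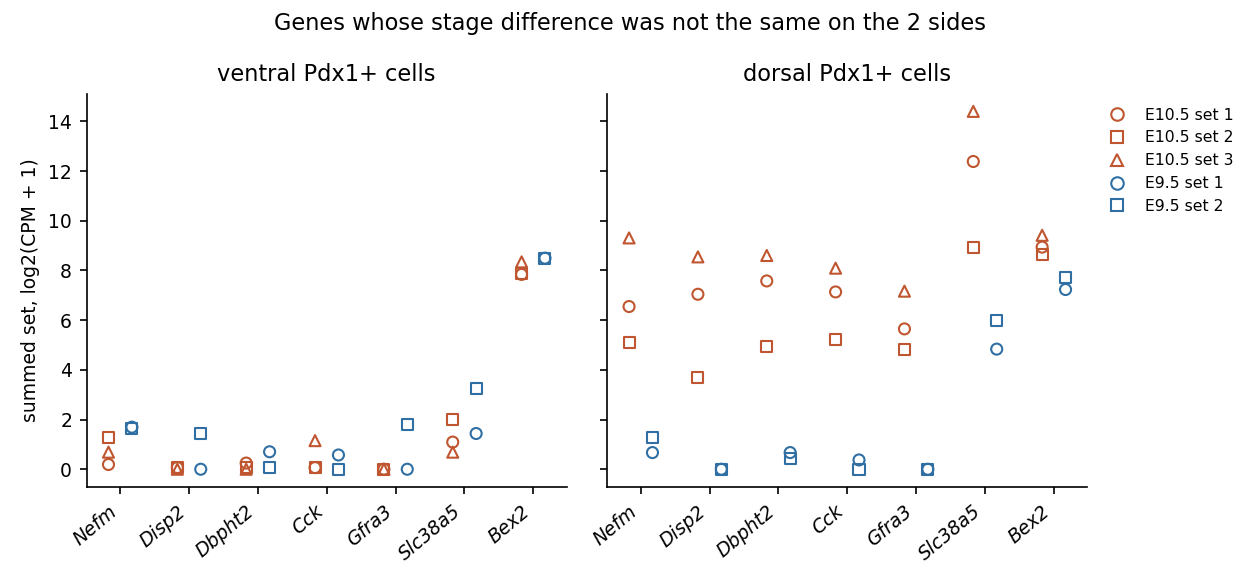
Points give the level of 7 genes in summed ventral sets (left panel) and summed dorsal sets (right panel) as log2(CPM + 1), with E10.5 sets left of E9.5 sets for each gene. Ventral sets stay low at both stages for 6 genes, whereas all dorsal E10.5 sets lie above the dorsal E9.5 sets.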

How the data were processed

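Single cells were sorted and sequenced by Smart-seq2, per the labels' protocols. Per the submitters' processing notes, TopHat2 2.1.0, Bowtie2 and HTSeq 0.6.0 were used with GRCm38. The deposited table holds whole-number counts of reads per gene for 40824 genes and 92 spike-in rows, which were left out of totals and tests. Counts were summed per numbered set, and 38 sets of 3 or more cells in 12 sorted groups entered 1 quasi-likelihood model in edgeR 4.0.16 (TMM scaling, filterByExpr, 26 residual degrees of freedom), with Benjamini-Hochberg adjustment over all 19285 genes and a threshold of 0.05. Besides the Pdx1+ cells, these groups hold Pdx1-high and Pdx1-low sorts, Pdx1-low sorts with and without Liv2, and liver cells of E10.5 and E15.5. All of them share in the estimate of the spread. Without the E15.5 liver set the counts of calls stayed at 0 (ventral) and 7 (ventral minus dorsal). DESeq2 1.42.0 was an alternative. CPM of a set uses the TMM-scaled total, and CPM of a cell its plain total. Intervals of log2 fold changes are 95% intervals of that fit. The main fit treated sets as independent and did not pair them by number. Deviations of same-numbered ventral sets correlated at -0.0617 and -0.0837 across the stages. With only 2 E9.5 sets, crossed pairs give the same values with the opposite sign. These values therefore cannot tell whether set numbers pair. Ventral and dorsal sets of E9.5, however, shared a pattern of Ins2 by set number: 16 of 16 and 24 of 24 cells of set 2 and no cell of set 1 held it. The test between the sides treats these sets as independent. What a tie between same-numbered sets would do to that test was tried only with the set number as a replicate block. No doublet caller was run and no cell was removed.

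Genes named are 18 fixed genes, up to 10 called genes per direction and comparison, and up to 4 members of each of 27 lists with the smallest p. Nr5a2, Foxa1, Grhl2, Cela1, Ins1, Ins2, the dorsal endocrine genes, Gpx3, the sterol and Bex genes and the genes that describe E10.5 set 3 were chosen after their values were seen. The cells, the lists and the pairing of Pdx1 with Sox17 were chosen with earlier results of these data known. The model script was run on simulated counts with planted changes and the same spread for all genes. That run does not show how often the fit finds changes in these sets. Some genes that the rule names are not reported here.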

Additional observations from a re-analysis of the deposited data

Results flagged for a closer look

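For 7 genes the ventral stage difference (E10.5 over E9.5) was lower than the dorsal one in edgeR's test of the difference itself. The difference of log2 fold changes was -9.32 for Nefm, -18.04 for Disp2, -10.53 for Dbpht2, -12.07 for Cck, -19.74 for Gfra3, -1.98 for Bex2 and -9.12 for Slc38a5. Fitted values of Disp2, Cck and Gfra3 depend on the prior count, since sets of at least 1 group had no read. Disp2 stood at 131, 11.8 and 373 CPM in dorsal E10.5 sets, against 0 in both dorsal E9.5 sets, and at no more than 1.74 CPM in any ventral set. Gfra3 stood at 49.2, 27.3 and 143 CPM in dorsal E10.5 sets, against 0 in both dorsal E9.5 sets, and at 0 in every ventral set but E9.5 set 2, which had 2.53 CPM. No gene passed with only the Pdx1+ sets compared, with only cells at 10 CPM or more of Pdx1, without cells that held both Xist and Y-linked reads, or without either E9.5 dorsal set.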

How the results depend on the processing

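The count of genes called between E10.5 and E9.5 ventral sets was 12 with DESeq2, 1 with cells thinned to 100000 reads, 1 with no filter on low counts and 0 to 2 when 1 set was left out. The count for the ventral minus dorsal difference was 66 with DESeq2, 18 with no filter, 0 with only cells at 10 CPM or more of Pdx1, 0 with only the Pdx1+ sets compared, 0 without cells that held both Xist and Y-linked reads (chosen after seeing the data) and 0 to 33 when 1 set was left out: 33 without E10.5 dorsal set 2, 3 without E10.5 ventral set 1 or E9.5 ventral set 2, 4 without E9.5 ventral set 1 and 0 without either E9.5 dorsal set. With the set number as a replicate block the counts were 0 and 7. The count for the dorsal stage comparison was then 33, against 41 in the main fit.

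The co-positive share of E10.5 cells was 1.69% when thinned at 50 CPM. That of E9.5 cells was 15.9% at 50 CPM, 18.2% when thinned at 50 CPM and 18.8% at 50 CPM without the cells with both kinds of sex-linked reads. The E9.5 share with Ptf1a was 29.5% at 1 CPM. Signs of uncalled log2 fold changes turned as follows. Without E9.5 ventral set 1, Pdx1 was -0.32, Afp 0.73 and Gcg -0.14. Without the cells with both kinds of sex-linked reads, Pdx1 was -0.47, Sox9 -0.37 and Prox1 -0.27. With only Pdx1 cells, a fit that also lost E10.5 ventral set 3, Afp was 0.10, Foxa2 0.31 and Alb -0.60. Without E10.5 ventral set 1, Sox9 was -0.17 and Onecut1 -0.11. Hhex was 0.03 without E10.5 ventral set 3 and 0.04 with sets of 5 or more cells. Afp was 0.37 without the 25 cells with the odd label, Alb -0.27 without E9.5 ventral set 2 and Gcg -0.49 without E10.5 ventral set 2. Over the fits that left out 1 ventral set, log2 fold changes ranged from -0.32 to 1.38 for Pdx1, -1.10 to 0.73 for Afp, -0.17 to 0.58 for Sox9, -0.89 to 0.03 for Hhex, -0.11 to 0.39 for Onecut1, -0.27 to 3.52 for Alb and -0.49 to 2.76 for Gcg. Over all 17 alternatives, uncalled values without a change of sign ranged from 0.95 to 3.28 for Ptf1a, 2.09 to 3.95 for Nkx6-1, 2.09 to 4.14 for Cpa1 and 2.54 to 8.25 for Wnt7b. The cause of these changes was not tested. With 3 sets against 2, and 4 cells in 1 of them, a missing call does not show that a gene was alike at the stages.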

Other observations

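Many genes of sterol synthesis were lower in every E10.5 set than in both E9.5 sets. This list was chosen after its values were seen. Of 23 members 16 were lower in all 3 E10.5 sets than in both E9.5 sets and none was higher, with a median log2 fold change of -1.54 beside -0.03 for all genes, and no member passed the adjusted threshold. Over all genes 11.4% were lower and 7.09% higher in this way. Hmgcs1, which makes the precursor of mevalonate, stood at 189, 186 and 15.3 CPM at E10.5, against 791 and 405 CPM at E9.5. Nsdhl, a late enzyme of the pathway, stood at 27.4, 38.9 and 13.4 CPM at E10.5, against 161 and 76.4 CPM at E9.5. Msmo1 stood at 122, 125 and 93.4 CPM at E10.5, against 761 and 169 CPM at E9.5.

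Gpx3, an extracellular glutathione peroxidase, had the smallest p of the ventral comparison. It stood at 55.3, 63.7 and 23.8 CPM at E10.5, against 238 and 789 CPM at E9.5, a log2 fold change of -3.41 (-4.76 to -2.06) with an adjusted p = 0.245 by edgeR. Over 17 alternatives the log2 fold change lay between -4.03 and -2.31, and Gpx3 passed in 4 of them. Of 9 tested Bex and Tceal genes, a list also chosen after its values were seen, 6 were lower in every E10.5 set. The share of all genes that were lower was 11.4%. Bex1 stood at 674, 622 and 237 CPM at E10.5, against 1059 and 1129 CPM at E9.5.

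The insulin genes followed the set number at E9.5. Ins2 stood at 10 CPM or more in 16 of 16 ventral and 24 of 24 dorsal cells of E9.5 set 2, with at most 45.8 CPM in a ventral cell, while none of 28 ventral and 7 dorsal cells of E9.5 set 1 had a read. Ins1 was at that level in 14 of 16 and 15 of 24 cells of set 2 and had no read in set 1. At E10.5 Ins2 reached 10 CPM in 2 of 59 ventral cells. The cause was not tested.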
